A study of Mus musculus with 8 samples.

Results

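The genes described here are 37 genes of neurons, chosen as a list of names: genes of bipolar, amacrine and ganglion cells, which form the inner retina, and genes that most neurons use for synapses, axons and transmitter release. Their expression was measured in the retinal pigment epithelium and choroid (RPE/choroid) of old and young mice. A gene was represented by the probe set annotated to it alone with the highest mean log2 intensity, which gave a value for 36 of the 37 genes, out of 18193 genes in all. Grm6, the glutamate receptor of ON bipolar cells, had no probe set annotated to it alone and was not analysed here. The old group was male C57BL/6 mice of 26 months and the young group was male C57BL/6 mice of 4 months, with 4 arrays each, no genetic change and no treatment. Each array carried the total RNA of 2 animals, pooled from their 4 RPE/choroids, so the spread between arrays is that between pools of this size. The comparison asks which transcripts differ with age in the tissue that lies behind the photoreceptors.

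In the retina, photoreceptors pass their signal to bipolar cells with glutamate, bipolar cells excite ganglion cells, and horizontal and amacrine cells shape the signal on the way, the amacrine cells mostly with GABA and glycine. Ganglion cell axons leave the eye as the optic nerve. None of these cells lies in the RPE or the choroid. The choroid has neurons and axons of its own, since autonomic and sensory nerves run through it and some of its neurons are intrinsic, and many synaptic and axonal genes are shared by all of these neurons. The study separated the neural retina from the RPE/choroid before lysis. In whole tissue, fewer cells of a type and less RNA per cell cannot be told apart.

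The values were linear intensities whose median was 129 to 135 on every array, and arrays of the same age correlated at 0.991 or above. Depth in reads does not apply to arrays, and their number limits the precision. The RPE marker examined was bright on every array. Its level does not show how much neural retina each sample held. Rpe65, the retinoid isomerase that defines the RPE, had intensities of 11410, 11040, 10810 and 11000 in old RPE/choroid, against 12120, 11920, 11340 and 10930 in young RPE/choroid, among the brightest of a table whose highest value was 19749.

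One array has to be described before the results. Old replicate 4 was the highest of the 4 old arrays for 27 of the 36 measured genes, where it was the highest for 25.0% of all genes. With each gene's own mean taken off, the log2 intensity of the 36 genes averaged -0.37, -0.42, -0.43 and 0.17 in old replicates 1 to 4, against 0.27, 0.20, 0.31 and 0.28 in young replicates 1 to 4. Old replicates 1 to 3 thus lay below every young array and old replicate 4 lay close to them. Each gene that passed the test with all 8 arrays, and most counts of genes, are therefore given without this array as well.

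**Figure D1:**
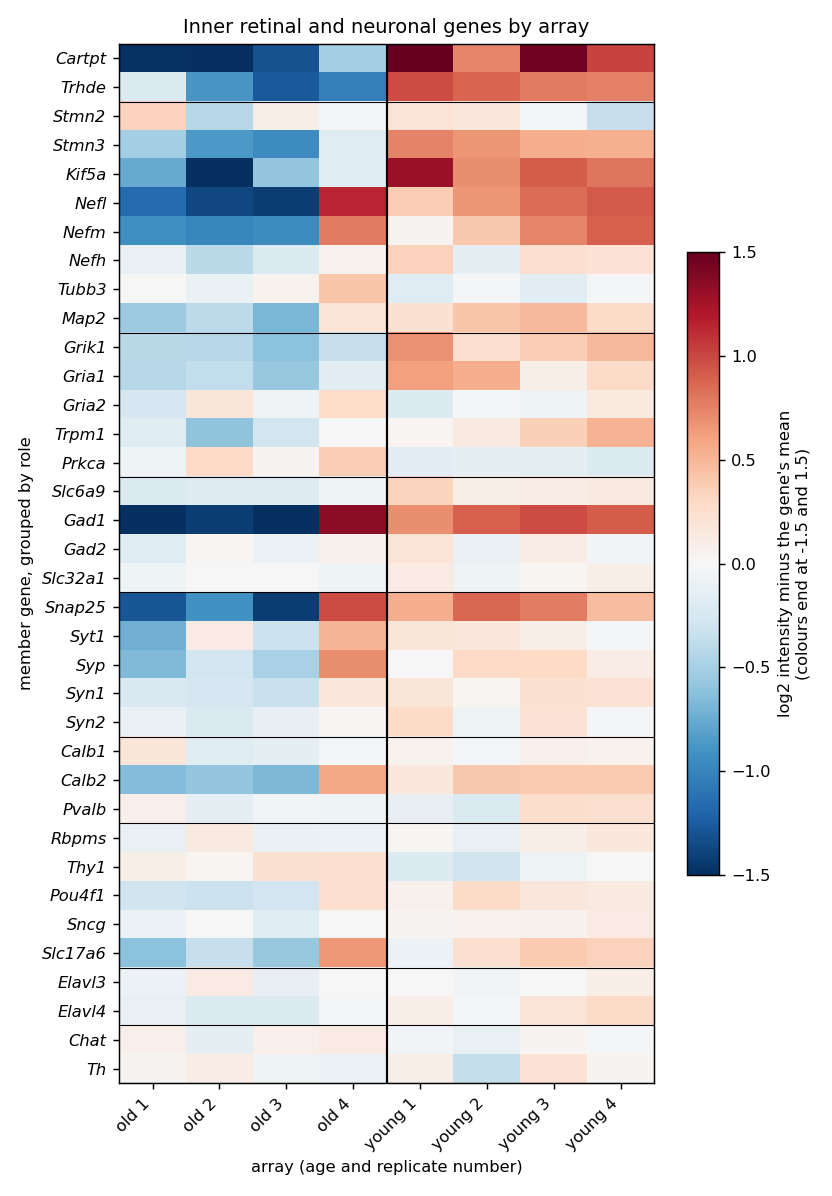
Log2 intensity of the 36 measured genes (rows, grouped by role) in each of the 8 arrays (columns, 4 old then 4 young), minus the gene's mean over the 8 arrays; colours end at -1.5 and 1.5. In old replicates 1 to 3 most rows are blue, while in old replicate 4 Gad1, Nefl, Snap25, Nefm and Syp are red as in the young arrays.

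The list leaned to lower levels in old RPE/choroid. With all 8 arrays, 10 of the 36 genes were lower in old RPE/choroid at an adjusted p under 0.05 (limma, adjusted over all 45037 probe sets tested), where 9.56% of all genes were lower. These were Cartpt, Trhde, Stmn3, Kif5a, Grik1, Gria1, Slc6a9, Trpm1, Map2 and Elavl4. Prkca and Thy1 were higher, that is 2 of 36, where 11.8% of all genes were higher. The other 24 did not pass the test. The median log2 fold change, old minus young, was -0.33 over the 36 genes and -0.02 over all genes. Below 0 lay 31 of the 36, where 9729 of all 18193 genes did.

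Without old replicate 4, 19 of the 36 genes were lower, where 7.87% of all genes were. Leaving out any other single array gave 7 to 11 lower genes. Old replicate 4 was singled out by its high values in these same genes. The counts and adjusted p-values without it, here and below, take no account of that choice. All 10 genes named above were among the 19, and the 9 added were Gad1, Snap25, Syp, Syn1, Calb2, Nefl, Nefm, Pou4f1 and Slc17a6. The median of the 36 became -0.41. No member passed as higher without it by limma (2 had an unadjusted p under 0.05), where 9.18% of all genes did. At the thresholds of the study, an adjusted p under 0.01 together with a fold over 2, Cartpt, Trhde, Stmn3 and Kif5a were lower, where 0.0989% of all genes were. Kif5a missed them when any single array other than old replicates 2 or 4 was left out (limma adjusted p = 0.0169 to 0.0301). None of the 36 was higher at these thresholds (limma; Prkca and Thy1, 2 genes, had an unadjusted p under 0.05), where 1.13% of all genes were. The study itself listed Thy1 as higher at these thresholds in its own limma analysis, as described further on. Without old replicate 4 the genes lower at these thresholds were 8 of the 36, where 0.264% of all genes were. The list holds genes that had already been named from these same arrays, among them Cartpt, Stmn3, Trhde, Grik1, Gria1 and Thy1, so its counts are not independent evidence of its direction.

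By their order over the arrays the 36 genes fell into 4 patterns. In 11 genes every old array lay below every young array, a pattern that 13.7% of all genes showed. These were the 10 lower genes and Sncg. In 10 genes only old replicate 4 was not below every young array, where 3.69% of all genes showed that. They were Gad1, Snap25, Syp, Syn1, Syn2, Calb2, Nefl, Nefm, Pou4f1 and Slc17a6. With old replicate 1 as the exception a single gene showed this, where 4.36% of all genes did, and with old replicates 2 or 3 as the exception no gene did, where 2.03% and 1.23% of all genes did. In 2 genes, Prkca and Thy1, every old array was higher than any young array, where 15.8% of all genes showed that. The other 13 (Stmn2, Gria2, Gad2, Syt1, Calb1, Pvalb, Rbpms, Nefh, Tubb3, Elavl3, Slc32a1, Chat and Th) overlapped between the ages in another way. Among the 11 genes that were low throughout, old replicate 4 was again the highest old array in 9, all of them genes that passed the test.

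**Figure D2:**
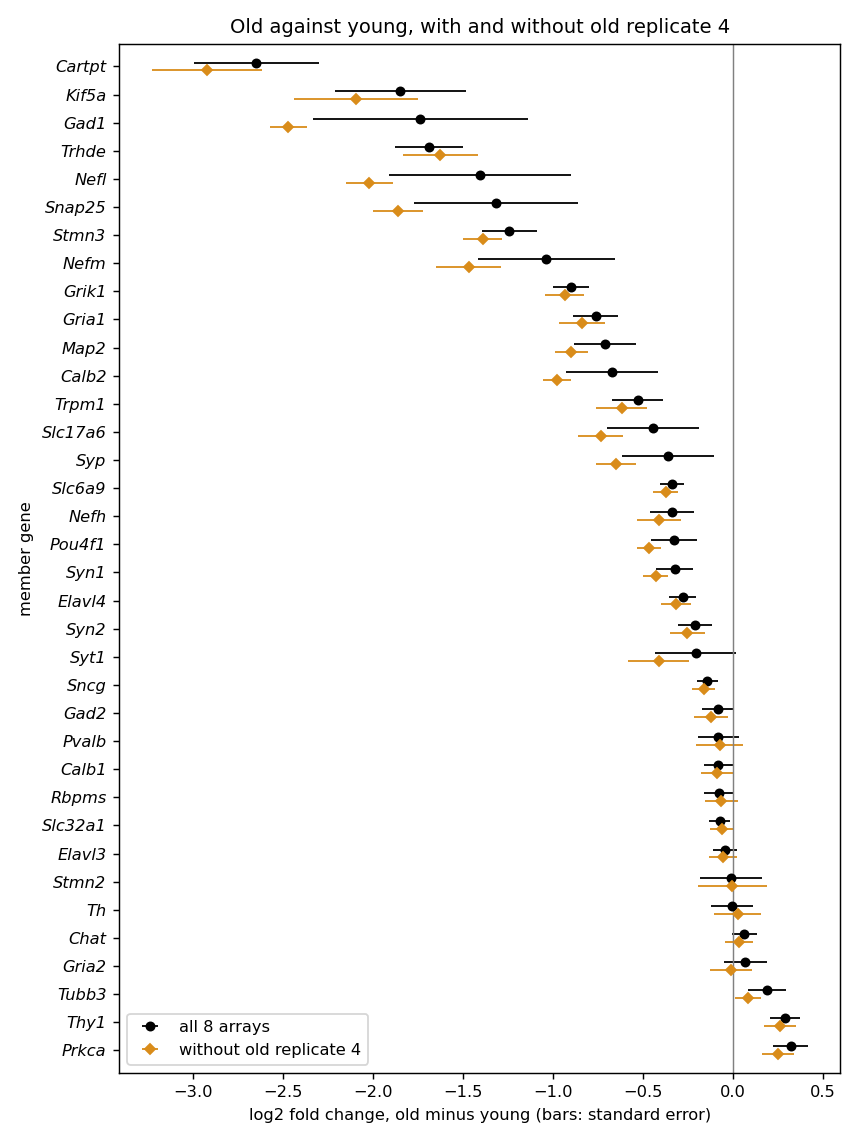
Log2 fold change of each of the 36 genes (old minus young; vertical axis, genes ordered by size), from all 8 arrays (black) and without old replicate 4 (orange), with the standard error as bars. Gad1, Nefl, Snap25 and Nefm move to the left and their bars shorten without that array, whereas Trhde, Grik1 and Gria1 stay within their bars.

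The neuropeptide gene and the peptidase gene were both lower in old RPE/choroid, with and without old replicate 4. Cartpt encodes the precursor of CART peptides, which some amacrine and ganglion cells and many autonomic neurons release. Its intensity was 112.5, 77.72, 126.9 and 222.4 in old replicates 1 to 4, against 1333, 520.2, 863 and 634.8 in young replicates 1 to 4. Every old array lay below every young array. The log2 fold change was -2.65 ± 0.35 (SE, n = 4 each; limma adjusted p = 0.00129), 6.26-fold lower in old RPE/choroid, and -2.92 without old replicate 4. Trhde encodes the ectoenzyme that degrades thyrotropin-releasing hormone. It had 219.2, 138.2, 106.1 and 124.2 in old RPE/choroid, against 499.7, 462.9, 433.8 and 427.6 in young RPE/choroid. Old replicate 4 was low here like the others, and the log2 fold change was -1.69 ± 0.19 (limma adjusted p = 0.000578), or 3.22-fold lower in old. Without old replicate 4 it was -1.625 (adjusted p = 0.00188).

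The promoters of 3 genes of the list are shown because they belong to the different patterns: Cartpt was low in all 4 old arrays, while Gad1 and Syn1, described further on, were low in all old arrays but replicate 4. Each is the 250 bases before the start site from RefSeq (GRCm38.p6), 5′ to 3′ on the gene's strand, at chr13:99900684-99900933 (minus strand) for Cartpt, chr2:70561879-70562128 (plus strand) for Gad1 and chrX:20920919-20921168 (minus strand) for Syn1. Capitals mark exact matches to one of 4 short motifs on either strand: the cAMP response element TGACGTCA, the left part TTCAGCACC and the right part GGACAGC of the RE1 element bound by the neuronal repressor REST, and the TATA box TATAAA.
Cartpt: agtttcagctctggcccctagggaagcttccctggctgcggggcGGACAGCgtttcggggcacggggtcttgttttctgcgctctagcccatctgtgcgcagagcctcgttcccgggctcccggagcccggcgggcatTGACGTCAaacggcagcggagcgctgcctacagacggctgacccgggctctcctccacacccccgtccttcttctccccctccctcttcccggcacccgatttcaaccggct
Gad1: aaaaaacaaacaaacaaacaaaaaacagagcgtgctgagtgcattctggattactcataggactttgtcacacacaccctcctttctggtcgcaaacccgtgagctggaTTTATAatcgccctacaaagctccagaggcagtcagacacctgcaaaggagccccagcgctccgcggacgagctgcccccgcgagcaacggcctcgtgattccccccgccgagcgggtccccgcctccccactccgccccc
Syn1: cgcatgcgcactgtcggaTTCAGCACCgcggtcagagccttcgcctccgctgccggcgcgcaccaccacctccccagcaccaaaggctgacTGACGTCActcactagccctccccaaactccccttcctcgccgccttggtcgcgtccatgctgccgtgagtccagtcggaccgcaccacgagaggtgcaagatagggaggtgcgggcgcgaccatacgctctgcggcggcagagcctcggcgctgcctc
The cAMP response element lies at position -112 from the start site in Cartpt and -159 in Syn1.

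In windows of 300 bases, from 250 before to 50 after the start, 24 of the 37 genes had a promoter sequence. As some had several start sites, these 24 genes had 34 windows. The cAMP response element was in 3 of the 34 windows, those of Cartpt, Syn1 and Th, and in 1.79% of the 32851 windows of all genes. The left RE1 part was in 1 of the 34, in Syn1, and in 0.371% of all windows. The right part was in 7 of the 34, in 7 genes, and in 6.56% of all windows. The TATA box was in 2 of the 34, in Elavl3 and Gad1, and in 13.6% of all windows. Cartpt, Syn1 and Th, which share the cAMP response element, did not share a pattern over the arrays: Th had a log2 fold change of -0.002. These are matches of letters only.

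Of the 8 genes of the cytoskeleton and axonal transport, 3 were lower with all 8 arrays and 5 without old replicate 4. Among all genes the shares were 9.56% and 7.87%. Stmn3, a stathmin that regulates microtubules in neurons, had 704.2, 552.7, 522.2 and 884.3 in old RPE/choroid, against 1674, 1589, 1461 and 1448 in young RPE/choroid. It was low in all 4 old arrays, least so in replicate 4, and the log2 fold change was -1.24 ± 0.15 (limma adjusted p = 0.000892), or 2.37-fold lower in old, and -1.39 without old replicate 4. A second probe set for Stmn3 gave -1.20 (adjusted p = 0.000625). Kif5a, a kinesin motor of axons, had 409.8, 154.4, 460.4 and 607.9 in old RPE/choroid, against 1691, 1118, 1299 and 1208 in young RPE/choroid. The groups did not overlap, with a log2 fold change of -1.85 ± 0.36 (limma adjusted p = 0.00922), or -2.09 without old replicate 4, but the other probe sets of Kif5a gave 0.01 and 0.03, so this call rests on 1 of its 3 probe sets. Map2, the microtubule protein of dendrites, had 167.2, 185.9, 152 and 282 in old RPE/choroid, against 286.6, 326.9, 340.9 and 298.5 in young RPE/choroid. Old replicate 4 lay just below the lowest young array, and the log2 fold change was -0.71 ± 0.17 (limma adjusted p = 0.021), or -0.90 without that array. The other 3 probe sets of Map2 gave -0.18 (adjusted p = 0.0508), -0.08 and -0.11, and the mean over its probe sets was -0.27 (adjusted p = 0.0231), so the size of the difference rests on 1 of 4 probe sets. The call for Map2 was lost without old replicate 2 (adjusted p = 0.0518), old replicate 3 (0.0548) or young replicate 3 (0.0583).

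The neurofilament genes, which encode the intermediate filaments of large axons such as those of ganglion cells, split the old arrays. Nefl had 120.6, 104.1, 99.79 and 593 in old replicates 1 to 4, against 350.5, 426.8, 480.7 and 508.9 in young replicates 1 to 4. Old replicate 4 was above every young array and the other old arrays were far below them. The log2 fold change was -1.41 ± 0.51 with all arrays (limma adjusted p = 0.0851) and -2.02 without old replicate 4 (adjusted p = 0.000124). Nefm had 78.72, 75.49, 76.34 and 254.7 in old RPE/choroid, against 152.5, 195.7, 247.1 and 276.7 in young RPE/choroid. Its old replicate 4 lay within the young range, and the log2 fold change was -1.04 (adjusted p = 0.0909), or -1.47 without that array (adjusted p = 0.00157). Nefh had 195.9, 159.1, 182 and 218.1 in old RPE/choroid, against 268, 191, 250.6 and 245.8 in young RPE/choroid. Its groups overlapped because young replicate 2 was low, and its log2 fold change of -0.34 passed the test only when that young array was left out among the single-array omissions (adjusted p = 0.0261, against 0.0892 with all 8). Stmn2, a stathmin of growing axons, and Tubb3, the neuronal tubulin, had log2 fold changes of -0.01 and 0.19 and did not pass the test.

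Of the 5 measured genes of glutamate receptors and bipolar cells, 3 were lower and 1 was higher, where 9.56% and 11.8% of all genes were. Without old replicate 4, 3 were lower and none higher (limma, 1 higher at an unadjusted p under 0.05), where 7.87% and 9.18% of all genes were. Grik1, a kainate receptor subunit found in OFF bipolar cells, had 82.16, 81.58, 71.88 and 86.69 in old RPE/choroid, against 177.1, 130, 142.8 and 153.3 in young RPE/choroid. The 4 old arrays lay close together, and the log2 fold change was -0.90 ± 0.10 (limma adjusted p = 0.000503), or -0.93 without old replicate 4. Its other probe set overlapped between the ages and gave -0.18 (adjusted p = 0.434), and the mean of both was -0.54 (adjusted p = 0.0118). Gria1, an AMPA receptor subunit, had 46.62, 48.53, 42.23 and 55.98 in old RPE/choroid, against 95.6, 91.45, 66.45 and 76.16 in young RPE/choroid. Its log2 fold change was -0.76 ± 0.13 (limma adjusted p = 0.00419), or -0.835 without old replicate 4 (adjusted p = 0.00448), and a second probe set gave -1.29 (adjusted p = 0.00331). Both genes were dim, below the median intensity of their arrays in some or all samples, and both were among the 11 measured genes that a filter on low values removed. Gria2, the AMPA receptor subunit that limits calcium entry, had a log2 fold change of 0.07 on its brightest probe set and -0.58 and -0.55 on the other probe sets, none of which passed the test with all arrays. Without old replicate 4 these last values were -0.84 (adjusted p = 0.00535) and -0.86 (adjusted p = 0.00168).

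Trpm1 encodes the cation channel that opens when ON bipolar cells respond to light, and it was first known from melanocytes. It had 2253, 1676, 2108 and 2553 in old RPE/choroid, against 2611, 2808, 3276 and 3658 in young RPE/choroid. The groups did not overlap, but old replicate 4 and young replicate 1 lay side by side. The log2 fold change was -0.53 ± 0.14 (limma adjusted p = 0.032), or -0.62 without old replicate 4 (adjusted p = 0.0229), and the other 3 probe sets gave -0.87, -0.98 and -0.57 with adjusted p between 0.00279 and 0.00714. The call on the brightest probe set was lost without old replicate 2 (adjusted p = 0.0636), old replicate 3 (0.0748), young replicate 3 (0.0822) or young replicate 4 (0.0763). Of 13 melanocyte markers, Trpm1 among them, 12 were lower in old RPE/choroid, where 9.56% of all genes were. The count was 8 without old replicate 4, where 7.87% of all genes were lower, and 7 to 13 without another array. The summed intensity of the 13 markers was 56401 to 67466 in old and 73168 to 75145 in young RPE/choroid. Their part in the value of Trpm1 was not tested. Prkca, a protein kinase C used as a marker of rod bipolar cells but expressed in many cells, had 881.2, 1135, 952.3 and 1192 in old RPE/choroid, against 828, 842.7, 833.9 and 798.4 in young RPE/choroid. The old arrays all lay above the young ones, and the log2 fold change was 0.32 ± 0.10 (limma adjusted p = 0.0446). The call was lost when any 1 of 7 of the 8 arrays was left out (adjusted p = 0.0594 to 0.106) among them old replicate 4 (log2 fold change 0.25, adjusted p = 0.093), and was kept without old replicate 1 (0.0135), and of its other probe sets one gave 0.34 (adjusted p = 0.00909) and one gave -0.07.

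Of the 4 genes of inhibitory transmitters, Slc6a9 was lower with all arrays, and Gad1 as well without old replicate 4. The shares of all genes that were lower were 9.56% and 7.87%. Slc6a9, the glycine transporter of glycinergic amacrine cells that is also made in other cell types, had 2625, 2672, 2672 and 2924 in old RPE/choroid, against 3841, 3284, 3310 and 3353 in young RPE/choroid. Old replicate 4 and young replicate 1 were each the highest of their group, the groups did not overlap, and the log2 fold change was -0.34 ± 0.07 (limma adjusted p = 0.0101), or -0.37 without old replicate 4 (adjusted p = 0.0125). Its second probe set gave -0.15 (adjusted p = 0.0747). Gad1, the enzyme that makes GABA and whose promoter is shown above, had 44.85, 50.45, 38.9 and 341.5 in old RPE/choroid, against 218.8, 251, 265.3 and 253.9 in young RPE/choroid. Old replicate 4 was the highest of all 8 arrays and the other old arrays were the lowest. The log2 fold change was -1.74 ± 0.60 with all arrays (limma adjusted p = 0.074) and -2.47 without old replicate 4 (adjusted p = 2.47e-05). Gad2, the second GABA-synthesising enzyme, had -0.08 on its brightest probe set, with old values between 26.17 and 31.1 and young values between 27.41 and 34.28. Its dimmer probe set showed the split of Gad1 instead, with 13.19, 2.823, 7.809 and 31.09 in old RPE/choroid, against 23.31, 29.88, 22.81 and 23.53 in young RPE/choroid. The log2 fold change was -1.34 (adjusted p = 0.145), or -1.90 without old replicate 4 (adjusted p = 0.0227). All of these values lay far below the array medians of 129 to 135, so the weak signal limits the precision of this change. Slc32a1, the vesicular transporter of GABA and glycine, had 96.91, 101.4, 101.1 and 95.86 in old RPE/choroid, against 110.1, 95.99, 102.9 and 107.3 in young RPE/choroid. Its groups overlapped and the log2 fold change was -0.07 (adjusted p = 0.421). Of its other 3 probe sets 1 showed the split, with 44.15, 29.39, 33.61 and 63.47 in old RPE/choroid, against 47.59, 51.97, 56.12 and 56.94 in young RPE/choroid, and -0.59 without old replicate 4 (adjusted p = 0.0231).

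On the representative probe sets, no synaptic vesicle gene of the 5 passed the test with all arrays by limma (3 had an unadjusted p under 0.05). Without old replicate 4, 3 were lower, where 7.87% of all genes were. Snap25, a SNARE protein of vesicle fusion, had 263.7, 343.8, 240.8 and 1271 in old RPE/choroid, against 940.4, 1165, 1095 and 886.5 in young RPE/choroid. Old replicate 4 was again above every young array, and the log2 fold change was -1.32 ± 0.46 (adjusted p = 0.0755), or -1.86 without that array (adjusted p = 0.000174). Syp, the vesicle membrane protein synaptophysin, had 150.6, 196.1, 169.7 and 386.4 in old RPE/choroid, against 238, 292.6, 292.3 and 256.2 in young RPE/choroid. Again old replicate 4 was above every young array, and the log2 fold change was -0.36 (adjusted p = 0.362), or -0.65 without it (adjusted p = 0.00721). A second, dimmer probe set of Syp did not show this split, with 69.72, 73.92, 64.16 and 66.13 in old RPE/choroid, against 84.86, 74.86, 90.66 and 90.11 in young RPE/choroid. On it Syp was lower with all arrays, at -0.31 (adjusted p = 0.0234), or -0.30 without old replicate 4 (adjusted p = 0.0568). Syn1, the vesicle-tethering protein synapsin I whose promoter is shown above, had 125, 122.9, 116.2 and 162.3 in old RPE/choroid, against 165.3, 148.6, 170.4 and 169.3 in young RPE/choroid. Old replicate 4 lay inside the young range, and the log2 fold change was -0.32 (adjusted p = 0.0603), or -0.43 without it (adjusted p = 0.00629). Syt1, the calcium sensor of release, had 572.4, 1027, 759.6 and 1352 in old RPE/choroid, against 1070, 1069, 1006 and 928.1 in young RPE/choroid. Here old replicate 2 also reached the young arrays, and the log2 fold change was -0.21 (adjusted p = 0.56). Syn2, or synapsin II, had -0.21 (adjusted p = 0.148) on the brightest of its 6 probe sets, and a pair of the others was higher in old RPE/choroid, at 0.21 (adjusted p = 0.0389) and 0.34 (adjusted p = 0.0233).

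**Figure D3:**
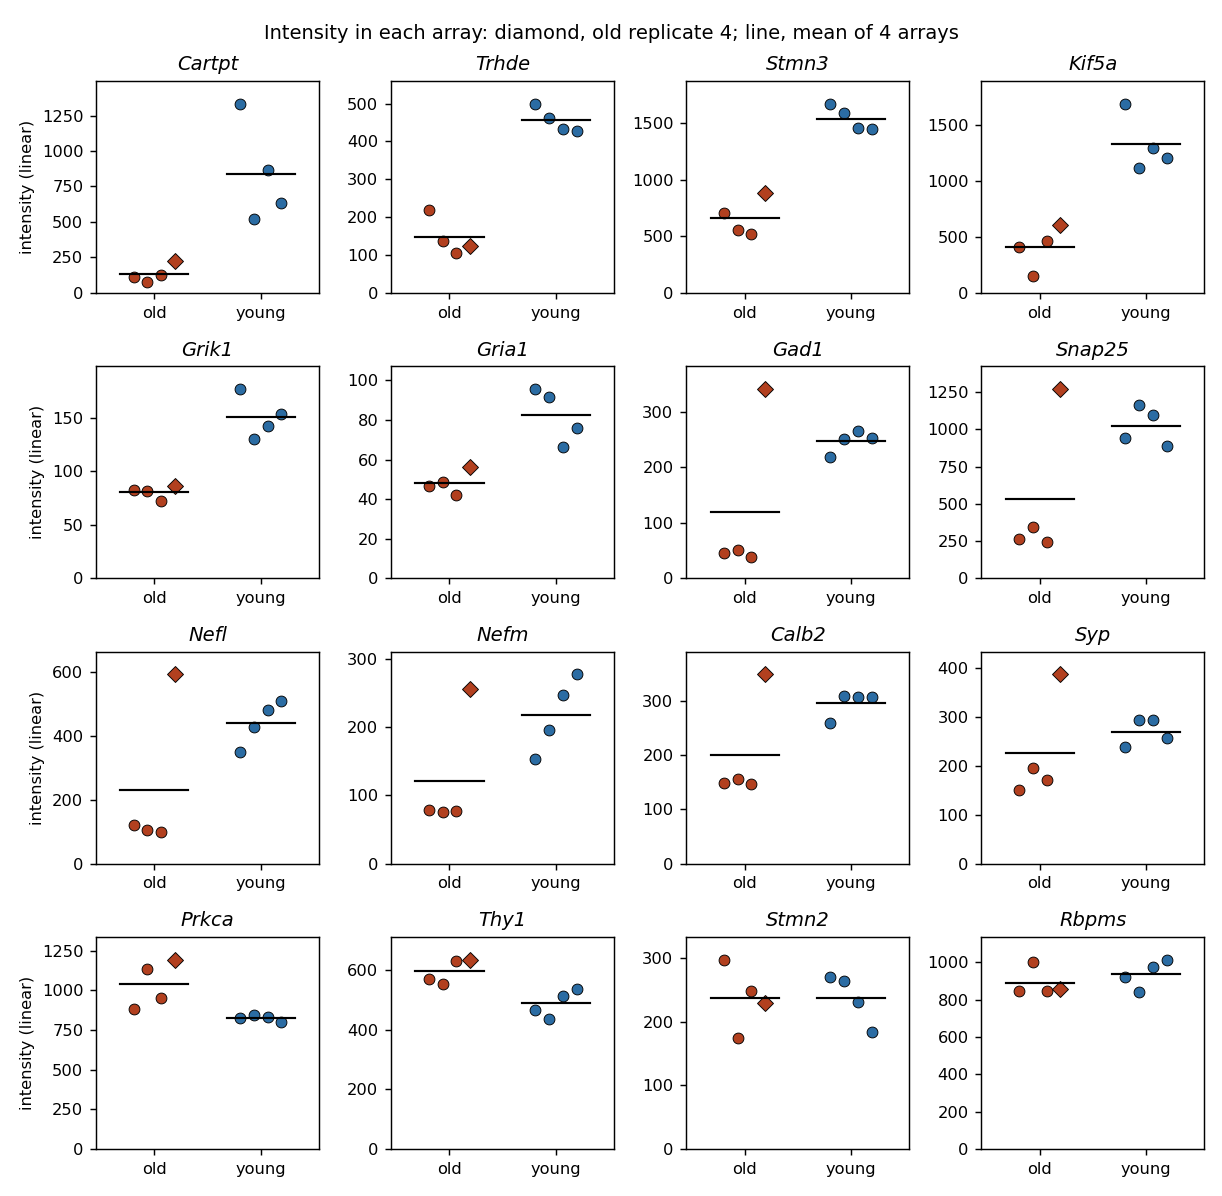
Linear intensity of 16 of the genes in each array (4 old, red, left; 4 young, blue, right; diamond, old replicate 4; line, mean of 4 arrays; each axis starts at 0). In Cartpt to Gria1 all old points lie below all young points, in Gad1, Snap25, Nefl, Calb2 and Syp the old replicate 4 diamond lies above the young points, and in Stmn2 and Rbpms the ages overlap.

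The calcium-binding proteins mark subtypes of inner retinal neuron, and 1 of the 3 followed the split of the old arrays, where 3.69% of all genes did. Calb2, or calretinin, of amacrine and ganglion cells, had 148.7, 155.8, 146.2 and 349.6 in old RPE/choroid, against 260.2, 309.7, 307.4 and 307.4 in young RPE/choroid. Old replicate 4 was the highest of the 8, and the log2 fold change was -0.67 (adjusted p = 0.0977), or -0.98 without it (adjusted p = 0.000229). Calb1, or calbindin, of horizontal and amacrine cells, had 91.86, 71.56, 74.12 and 80.37 on its representative probe set in old RPE/choroid, against 84.34, 80.48, 85.36 and 84.09 in young RPE/choroid. These overlapped, with a log2 fold change of -0.08 (adjusted p = 0.528). Its second probe set showed the split instead, with 38.14, 47.85, 40.05 and 155.4 in old RPE/choroid, against 105.8, 119.9, 118.7 and 106.3 in young RPE/choroid, and -1.43 without old replicate 4 (adjusted p = 0.000129). Pvalb, or parvalbumin, of some amacrine cells, had a log2 fold change of -0.08 (adjusted p = 0.667).

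Among the 5 ganglion cell genes, Thy1 was higher in old RPE/choroid, and Pou4f1 and Slc17a6 were lower only when old replicate 4 was left out. For comparison, 11.8% of all genes were higher with all arrays and 7.87% were lower without old replicate 4. Thy1, a surface glycoprotein of ganglion cells and also of T cells and fibroblasts, had 571.8, 552.9, 632.1 and 635.9 in old RPE/choroid, against 467.2, 438, 514 and 539.3 in young RPE/choroid. The old arrays all lay above the young ones, by a narrow margin. The log2 fold change was 0.29 ± 0.08 (limma adjusted p = 0.0369), or 1.22-fold higher in old. This call was lost without old replicate 3 (0.0973), old replicate 4 (0.0875), young replicate 1 (0.0902), young replicate 2 (0.0724) or young replicate 3 (0.0602). Without old replicate 4 the log2 fold change of Thy1 was 0.26. The study's own limma analysis listed Thy1 as more than 2-fold higher in old RPE/choroid. That analysis used RMA values and left out probe sets called absent in every sample. The reason for the difference in size was not tested. Of 15 measured T cell and fibroblast genes 6 were higher in old RPE/choroid, where 11.8% of all genes were. The count was also 6 without old replicate 4, where 9.18% of all genes were higher. The summed intensity of the 15 genes was 29992 to 35394 in old and 28502 to 31515 in young RPE/choroid. Their part in the value of Thy1 was not tested. Pou4f1, the ganglion cell transcription factor BRN3A, had 34.91, 34.08, 35.07 and 51.07 in old RPE/choroid, against 44.71, 52.19, 48.05 and 46.97 in young RPE/choroid. Slc17a6, the vesicular glutamate transporter of ganglion cells, had 41.46, 49.71, 42.65 and 99.61 in old RPE/choroid, against 59.49, 74.7, 83.53 and 80.29 in young RPE/choroid. In both, old replicate 4 left the other old arrays and reached or passed the young ones. Without it their log2 fold changes were -0.47 (adjusted p = 0.00372) and -0.73 (adjusted p = 0.00702). Sncg, or gamma-synuclein, did not overlap between the ages but had only -0.14 (adjusted p = 0.127), and Rbpms, an RNA-binding protein of ganglion cells, had -0.08 (adjusted p = 0.545).

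Of the neuronal RNA-binding proteins Elavl4 was lower, where 9.56% of all genes were. Neither enzyme of acetylcholine and catecholamine synthesis passed the test by limma, also at an unadjusted p under 0.05. Elavl4, or HuD, had 88.47, 82.39, 82.83 and 93.7 in old RPE/choroid, against 102.2, 94.59, 109 and 116.1 in young RPE/choroid. The groups were separated by less than 1 unit, and the log2 fold change of -0.28 ± 0.08 (limma adjusted p = 0.0345) was lost without old replicates 1, 2 or 3 or young replicates 1, 3 or 4 (adjusted p = 0.0518 to 0.0917). Without old replicate 4 it was -0.32 (adjusted p = 0.0362). Elavl4 was dim as well, and the filter on low values removed it. The other probe sets of Elavl4 gave -0.33 and -0.51 with all arrays (adjusted p = 0.0878 and 0.134). The dimmer of them had 17.27, 22.78, 18.9 and 38.29 in old RPE/choroid, against 29.32, 32.04, 35.5 and 35.3 in young RPE/choroid, the split described above. Without old replicate 4 they gave -0.44 (adjusted p = 0.0179) and -0.76 (adjusted p = 0.00352). Elavl3, or HuC, had 202.3, 233.5, 196.9 and 215.8 in old RPE/choroid, against 216.5, 209.2, 216.3 and 230.7 in young RPE/choroid, with a log2 fold change of -0.04 (adjusted p = 0.697). Chat, which makes acetylcholine in starburst amacrine cells and in parasympathetic neurons, had 69.67, 59.58, 69.3 and 71.89 in old RPE/choroid, against 64.06, 61.06, 67.78 and 65.16 in young RPE/choroid. Th, the rate-limiting enzyme of catecholamine synthesis in dopaminergic amacrine cells and in sympathetic neurons, had 157.8, 164.6, 145.9 and 143.8 in old RPE/choroid, against 163.8, 119.4, 178.1 and 157.3 in young RPE/choroid. Both overlapped between the ages, with log2 fold changes of 0.07 (adjusted p = 0.561) and -0.002 (adjusted p = 0.993).

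The 36 genes had 81 probe sets, and 24 genes had more than 1. Of the 81, 16 were lower and 6 were higher with all arrays, where 8.75% and 9.22% of all 45037 probe sets were, and 35 were lower and 1 was higher without old replicate 4, where 6.93% and 7.16% of all probe sets were. By any of its probe sets, 11 genes were lower with all arrays (the 10 named above and Syp) and 4 were higher (Prkca, Thy1, Syn2 and Rbpms, the last at 0.28 on a probe set that was not its brightest). A gene with more probe sets has more chances of a call. The share of all genes called by this rule was not counted, so these counts have no reference. In 26 genes every probe set had a log2 fold change below 0. As 12 of the 36 genes have only 1 probe set, this is the sign of a single value for some of them. The share of all genes was not counted here either.

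Other neuronal genes of the same roles, which are not on the list, also had a median below 0. Of 106 measured genes in 5 further lists (synaptic and axonal, bipolar, amacrine, horizontal and ganglion cell genes), 23 were lower and 4 higher with all arrays, and 43 were lower and 4 higher without old replicate 4. For comparison, 9.56% of all genes were lower and 11.8% higher with all arrays, and 7.87% and 9.18% without old replicate 4. The median log2 fold change of the 106 genes was -0.19, or -0.23 without that array. Only old replicate 4 was not below every young array in 33 of the 106, where 3.69% of all genes showed that. Leaving out any other array gave 10 to 22 lower genes, with the lowest count without old replicate 3. Of the 55 synaptic and axonal genes 15 were lower and 1 was higher, or 28 and 1 without old replicate 4 and 5 to 13 lower without another array. Among these Scg3, a protein of secretory granules, had 169.1, 188, 165.7 and 298 in old RPE/choroid, against 316, 284.4, 299.1 and 292.6 in young RPE/choroid, and Gria3, a further AMPA receptor subunit, had 139, 123.8, 132.1 and 143.4 in old RPE/choroid, against 186, 179, 181.7 and 190.4 in young RPE/choroid. Scg3 showed the split of the old arrays and Gria3 did not. Their log2 fold changes were -0.58 and -0.46, and those of Gap43, a growth cone protein, and Dlg4, the postsynaptic scaffold PSD-95, were -0.42 each.

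Of 16 further bipolar cell genes 4 were lower and 1 higher, or 7 and 1 without old replicate 4. The shares of all genes were 9.56% and 11.8%, or 7.87% and 9.18% without that array. The same shares apply to the lists that follow. Car8, a carbonic anhydrase-related protein, and Gnao1, a G protein subunit of the ON bipolar cascade, had log2 fold changes of -0.70 and -0.55, while Trnp1, a nuclear protein listed with bipolar cells, was higher at 0.74. Of 19 further amacrine cell genes 3 were lower and 1 higher, or 6 and 1 without old replicate 4 and 1 to 4 lower without another array. The higher one was Npy, or neuropeptide Y, which sympathetic neurons also release. It had 304.1, 503.3, 640.8 and 561.2 in old RPE/choroid, against 121.6, 126.8, 154.5 and 153.6 in young RPE/choroid, with a log2 fold change of 1.81 (limma adjusted p = 0.000625), so the neuropeptide genes Cartpt and Npy moved in opposite directions. Of 7 horizontal cell genes none passed the test by limma (3 had an unadjusted p under 0.05), and 1 was lower without old replicate 4. Of 10 further ganglion cell genes 1 was lower and 1 higher, or 2 and 1 without that array. Of 19 genes of autonomic nerves, Npy among them, 4 were lower and 3 higher with a median of -0.10, where 9.56% and 11.8% of all genes were. Without old replicate 4 the counts were 4 and 1, where 7.87% and 9.18% of all genes were. Without another array 1 to 3 were higher. The summed intensity of this list was 4720 to 5181 in old RPE/choroid, against 4733 to 5046 in young RPE/choroid.

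Markers of photoreceptors and glia, which also belong to the neural retina, were set beside these genes. All 22 measured rod markers had their highest old value in old replicate 4. Their summed intensity was 24272, 31926, 23350 and 47503 in old replicates 1 to 4, against 47295, 48312, 43288 and 28439 in young replicates 1 to 4. Old replicate 4 thus stood with young replicates 1 to 3, as for Gad1 and Snap25, but young replicate 4 was low for rods and not for the 36 genes, whose summed intensity was 12909, 12680, 12687 and 17738 in old RPE/choroid, against 20512, 18774, 20131 and 19867 in young RPE/choroid. Of the rod markers 1 was lower and none higher with all arrays (limma; at an unadjusted p under 0.05, 4 were lower and none higher), and their median was -0.47. Without old replicate 4, 6 rod markers were lower (19 at an unadjusted p under 0.05), with a median of -0.78, and without another array 0 to 2 were lower. Among all genes, 9.56% were lower and 11.8% higher with all arrays, and 7.87% and 9.18% without old replicate 4. Of 12 cone markers 3 were lower and 1 higher, or 6 and 1 without old replicate 4 (1 and 1 without any single other array except young replicate 4), and old replicate 4 was high for them as well, at 4417 in summed intensity, against 2712 to 2858 in the other old arrays and 2874 to 3920 in young RPE/choroid.

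Glial genes, those of Mueller cells and astrocytes, were lower for 8 of 21 markers and higher for 1, or 9 lower and none higher without old replicate 4 (limma; 2 higher at an unadjusted p under 0.05). Slc1a3, their glutamate transporter, had 158.7, 94.57, 168.1 and 245.8 in old RPE/choroid, against 473, 357.1, 441 and 414 in young RPE/choroid, a non-overlapping pattern like that of Cartpt and Kif5a (log2 fold change -1.41, limma adjusted p = 0.00486). At the thresholds of the study 4 of the 21 glial markers were lower, as were 4 of the 36 genes, where 0.0989% of all genes were. Of 24 RPE markers, of which some are also pigment genes of melanocytes, 11 were lower and none higher (limma; also none at an unadjusted p under 0.05), with a median of -0.19, and Rpe65 itself had -0.06 (adjusted p = 0.441). The number of lower RPE markers was 3 without old replicate 4 and 3 to 5 without any other array except old replicate 1, where it was 11. For the glial and RPE lists the shares of all genes were 9.56% lower and 11.8% higher, or 7.87% and 9.18% without old replicate 4. Old replicate 4 did not stand apart in the RPE markers, whose centred mean was -0.03, -0.10, -0.11 and -0.07 in old replicates 1 to 4, against 0.12, 0.11, 0.04 and 0.05 in young replicates 1 to 4. The amount of neural retina and of choroidal nerve in each sample was not measured, and its part in the values of the inner retinal and neuronal genes was not tested.

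**Figure D4:**
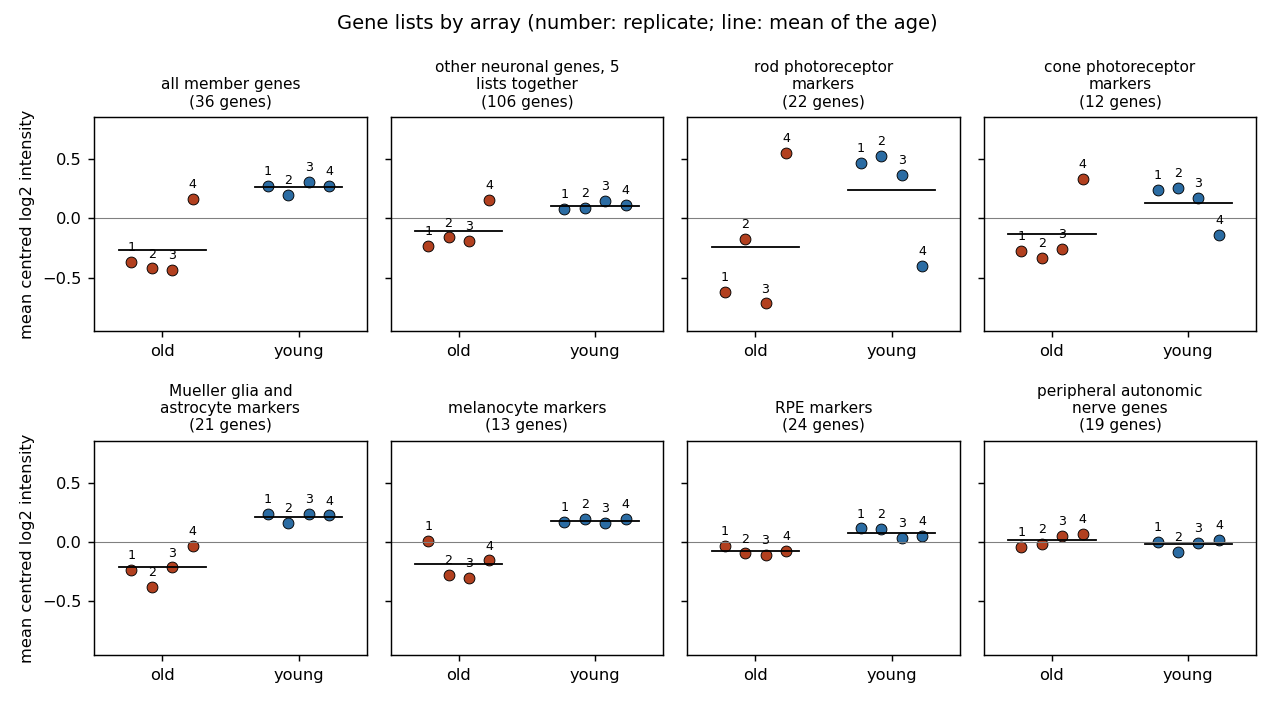
Mean log2 intensity of 8 gene lists in each array, with every gene's own mean over the arrays taken off (vertical axis; 4 old arrays left, 4 young arrays right; digits give the replicate, lines the mean of each age). Old replicate 4 lies high in the 36 genes, the 106 other neuronal genes, the rods and the cones, and young replicate 4 lies low in the rods and cones only.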

How the data were processed

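Total RNA from RPE/choroid was labelled with biotin and hybridised to Affymetrix arrays, 1 array per sample. The authors deposited linear intensities of 45101 probe sets; the study used RMA, Dchip and BRB-ArrayTools, and which of them gave these values is not given in the sources used here, so array levels rest on an unnamed normalization. Probe sets were named through the platform annotation, in which 34945 probe sets name 1 gene, 932 name several and 9160 name none; 64 controls were left out. Between 8 and 14 values per array were below 1 and were set to 1 before taking log2. Old and young arrays were compared with lmFit and eBayes in limma 3.58.1 (R 4.3.3), with p-values adjusted by the Benjamini-Hochberg method over 45037 probe sets. The procedure was tested on simulated data.

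The genes and gene lists were chosen with earlier results of these data known. All genes of the list are named, with values in every array for those past an adjusted p of 0.05 with all arrays or with any 1 array left out, and for the defining genes of each role. Other genes are those of each list with the most extreme changes, or its defining markers. Samples of equal number share no stated animal or day, so the replicate numbers were not taken as pairs. Nothing says whether the samples were prepared separately beyond pools of different animals, so p-values measure the spread between these arrays. Alternatives were quantile normalization, median centring, a filter on low values (22519 probe sets kept), a pseudocount of 32, trend and robust estimation, array weights, a replicate block, other probe set choices, other thresholds and leaving out each array. Promoter sequences came from RefSeq (GRCm38.p6).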

Additional observations from a re-analysis of the deposited data

Results flagged for a closer look

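Single arrays stood far from the others of their group in 11 of the 72 groups of 4 arrays examined. This was judged by the gap to the nearest array over the range, on linear intensities. The nominal rate of about 1 in 20 holds for independent groups, whereas these genes share the same arrays. The share of all genes was not counted, so the 11 have no reference. In 8 of the 11 the array was old replicate 4. Gad1 had 341.5 in it, against 38.9 to 50.45 in the other old arrays. Snap25 had 1271, where the other old arrays had 240.8 to 343.8. Nefl had 593 (others 99.79 to 120.6), Nefm had 254.7 (others 75.49 to 78.72) and Calb2 had 349.6 (others 146.2 to 155.8). Slc17a6 had 99.61 (others 41.46 to 49.71), Pou4f1 had 51.07 (others 34.08 to 35.07) and Slc6a9 had 2924 (others 2625 to 2672). These 8 genes span inhibitory transmitter synthesis, vesicle fusion, neurofilaments, a calcium-binding protein, ganglion cell genes and a glycine transporter.

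The other 3 were single genes. Rbpms had 1001 in old replicate 2 (other old arrays 844.2 to 857.6). In young replicate 1 Slc6a9 had 3841 (other young arrays 3284 to 3353) and Calb2 had 260.2 (other young arrays 307.4 to 309.7).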

How the results depend on the processing

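Leaving out 1 array at a time gave 7 to 19 lower genes (10 with all arrays), 0 to 2 higher genes (2 with all arrays), 3 to 8 genes past the thresholds of the study (4 with all arrays) and a median log2 fold change between -0.41 and -0.26. The most lower genes came without old replicate 4. The number of lower genes was 6 at an adjusted p under 0.01 and 17 under 0.1, and the number of higher genes was 0 at 0.01. Quantile normalization gave 0 higher genes by limma (2 had an unadjusted p under 0.05) and 10 lower ones. The median was -0.24 with a pseudocount of 32 and -0.48 with the probe set of largest variance, which also turned Rbpms to 0.28 (adjusted p = 0.0336). With a replicate block 12 genes were lower (Nefm and Nefh added) and 1 was higher. Deviations of arrays with the same number correlated at 0.097, 0.019, 0.022 and 0.043, and only replicate 1 correlated best with its own number. The cause of these shifts was not tested. The filter on low values leaves 25 of the 36 genes, and for the 11 dim genes the signal limits the precision. These 11 were Grik1, Gria1, Gria2, Gad2, Calb1, Pou4f1, Tubb3, Elavl4, Slc17a6, Slc32a1 and Chat.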

Other observations

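Outside the list, several genes of secretory granules and of synapses showed the split of the old arrays as sharply as Gad1 and Snap25. They were chosen after their values were seen. Scg2, a granin of secretory granules, had 88.86, 109.4, 101.6 and 560.9 in old replicates 1 to 4, against 399.9 to 470 in young RPE/choroid. Chgb, or chromogranin B, had 105.9, 147.1, 123.1 and 596.1 in old replicates 1 to 4, against 362 to 475.1 in young RPE/choroid. Cplx3, a complexin of ribbon and amacrine synapses, had 100.8, 144.3, 142.7 and 629.1 in old replicates 1 to 4, against 434.2 to 568.6 in young RPE/choroid. In each, old replicate 4 was the highest of the 8 arrays and the other old arrays lay below every young array. The short-wavelength cone opsin gene Opn1sw had 159.7, 139.2, 164.7 and 633.8 in old replicates 1 to 4, against 374.1, 446.5, 373.7 and 171.5 in young replicates 1 to 4, so that young replicate 4 was low there while it was not for the granins.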
